A study of Mus musculus with 583 samples.

Results

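The genes described here are 35 aminoacyl-tRNA synthetases of the mouse, 19 of them cytosolic and 16 mitochondrial, among the 38924 mouse genes of the count table. They were taken by gene identifier, with symbols from GENCODE M21, and a symbol ending in 2 was read as the mitochondrial enzyme. J1 mouse embryonic stem cells, an established line grown in 2i/LIF medium, which holds them in the ground state of pluripotency, were profiled as single cells with 6 library methods. No genotype or treatment differed between the groups, and every method had libraries A and B, 12 libraries and 583 cells in all. Smart-seq2 and Smart-seq on the Fluidigm C1 count reads along whole transcripts (4 libraries). The other 4 methods count unique molecular identifiers (UMIs), 1 tag at the 3′ end of each molecule (8 libraries). Of these, SCRB-seq and Drop-seq rely on PCR, and in vitro transcription serves in CEL-seq2 and in MARS-seq. All 35 genes passed the filter on low counts.

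Each synthetase joins 1 kind of amino acid to its tRNA, and so supplies the ribosome, except that Eprs serves both glutamate and proline. Cytosolic and mitochondrial translation mostly use enzymes from separate genes, but Gars (glycine) and Kars (lysine) each encode both enzymes, and mitochondrial glutamine tRNA is charged indirectly, by Ears2 and an amidotransferase. Several cytosolic enzymes (the products of Eprs, Iars, Lars, Qars, Kars, Rars and Dars here) sit in the multi-synthetase complex with the scaffold proteins Aimp1, Aimp2 and Eef1e1. When amino acids run short, uncharged tRNA activates the kinase Gcn2, translation of the factor Atf4 rises, and Atf4 induces genes of amino acid synthesis and transport together with many cytosolic synthetase genes.

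The promoter windows of the members (250 bases before to 50 after the RefSeq start, assembly GRCm38.p6) were searched on both strands for TGATGNAA, the core of the C/EBP-ATF response element. A window was found for 12 cytosolic and 14 mitochondrial members. The 8 letters occurred in 5 of the 12 cytosolic windows (41.7%), in 0 of the 14 mitochondrial windows, and in 4.51% of the 27025 genes with a window. The 5 genes were Aars, Gars, Iars, Tars and Yars, which charge alanine, glycine, isoleucine, threonine and tyrosine. All 5 belong to the synthetases known as Atf4 targets, of which 7 had a window. Stretches with the motif are shown because these 5 genes return below, in the comparison among cells. Capitals mark the motif, in the gene's own direction, counted with the first transcribed base as 1.
Aars, chr8:111033722-111033841, plus strand, the 120 bases before the start: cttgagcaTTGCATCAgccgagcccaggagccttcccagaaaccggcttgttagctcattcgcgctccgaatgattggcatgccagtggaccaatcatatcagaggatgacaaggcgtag
Aars, chr8:111033841-111033868, plus strand, second match, at base 10: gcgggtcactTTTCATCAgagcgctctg
Gars, chr6:55037881-55038000, plus strand, the 120 bases before the start: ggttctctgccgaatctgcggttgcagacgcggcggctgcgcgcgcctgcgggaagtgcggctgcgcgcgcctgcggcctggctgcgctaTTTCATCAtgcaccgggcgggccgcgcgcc
Tars, chr15:11399659-11399778, minus strand, the 120 bases before the start: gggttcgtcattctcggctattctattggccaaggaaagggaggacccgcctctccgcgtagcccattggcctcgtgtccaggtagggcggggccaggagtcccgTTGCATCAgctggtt
Iars, chr13:49682127-49682154, plus strand, match at base 8: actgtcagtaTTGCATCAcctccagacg
Yars, chr4:129189896-129189923, plus strand, match at base 4: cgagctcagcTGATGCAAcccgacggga

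The match read as TTGCATCA or TTTCATCA in Aars, Gars, Iars and Tars, which is the motif on the opposite strand, and as TGATGCAA in Yars. A match lay within 30 bases of the start in all 5 genes. A match describes letters and does not show a bound site. Among the genes of the amino acid response list (Atf4 and its known targets outside the synthetases), 7 of 23 windows held it (30.4%).

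Total counts per library ran from 583302 (Drop-seq B) to 34984056 (Smart-seq2 A), with 29 to 80 cells each. The naive stem cell markers (Pou5f1, Sox2, Nanog and others) were present in every library, 8 of 8, with a summed level of 1917 to 4516 CPM, the usual count scaled to library size. Fibroblast markers summed to at most 38.0 CPM, and 0 of 7 had a count in every library. Primitive endoderm markers summed to at most 33.2 CPM and those of the Zscan4-high state to at most 245.3 CPM. In Drop-seq, 29 of 42 barcodes of library A and 12 of 34 of library B lay 1 base from another barcode, so some of these cells may be split. CEL-seq2 A and B shared 26 barcodes, MARS-seq A and B 19, and SCRB-seq A and B 21. The labels do not say whether libraries A and B came from separate cultures, so p-values measure only the spread between these libraries.

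The median cytosolic gene stood well above the median mitochondrial gene in all 12 libraries. Scaled CPM (TMM) per kb of the longest transcript allows levels to be set side by side between genes. On this scale the median cytosolic gene exceeded the median mitochondrial gene by 3.26 ± 0.61 on the log2 scale (SD, n = 12 libraries), a mean of 9.61-fold. The log2 difference was lowest in Drop-seq B (2.77) and highest in CEL-seq2 A (4.71), and it was 3.23 ± 0.42 in the 4 full-length and 3.28 ± 0.72 in the 8 tag libraries. Since tag methods count 1 end of each molecule, their CPM was also compared without division by length, which gave 2.98 ± 0.61 (SD, n = 8). Both CEL-seq2 libraries lay above the other 6 tag libraries on either scale. Single genes overlapped between the compartments. Per kb, the mitochondrial genes above the lowest cytosolic gene numbered from 0 in Smart-seq2 A to 7 in CEL-seq2 B. With Lars2 left out, 13 (C1 library B) to 19 of the 19 cytosolic genes lay above every mitochondrial gene.

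**Figure D1:**
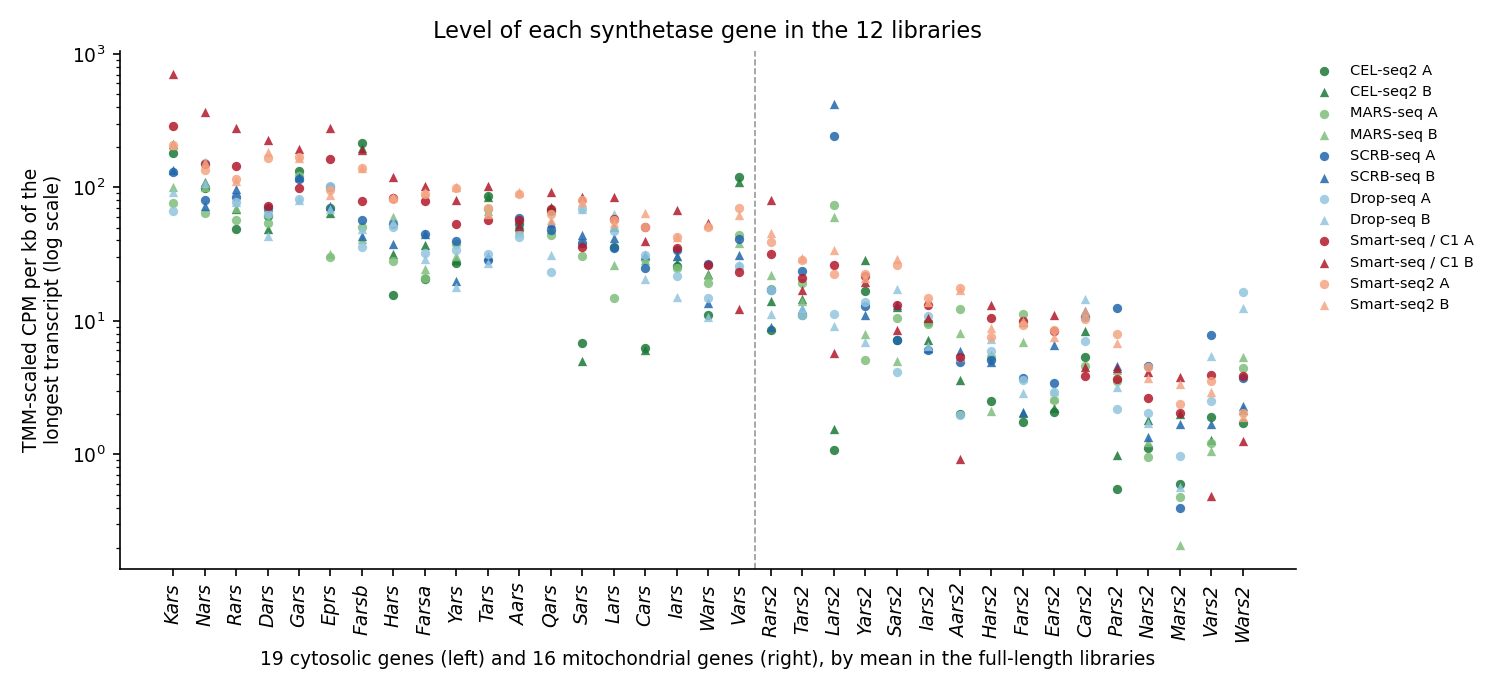
Level of each of the 35 genes in the 12 libraries (TMM-scaled CPM per kb of the longest transcript, log axis; colour gives the method, circles library A, triangles library B). Cytosolic genes, left of the dashed line, sit above most mitochondrial genes; Lars2 spans from 1.08 in CEL-seq2 A to 420 in SCRB-seq B.

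In the full-length libraries Kars had the highest mean level of the 35 genes (351.8 ± 236.7 CPM per kb, SD, n = 4), and C1 library B alone stood at 702.6; without it the mean was 234.9 ± 45.4 (n = 3), still the highest. Nars (asparagine, 201.4 ± 110.4), Rars (arginine, 162.3 ± 77.5), Dars (aspartate, 162.1 ± 65.0), Gars (156.6 ± 40.5) and Eprs (glutamate and proline, 156.0 ± 87.7) followed and did not differ beyond their spread. The order of these 5 changed with the summary: by the median of the 4 libraries Dars (174.5) and Gars (167.3) stood above Nars (152.0). The lowest cytosolic genes were Iars (47.1 ± 14.5), Wars (tryptophan, 45.5 ± 13.0) and Vars (valine, 41.7 ± 28.3), again within their spread. Among the mitochondrial genes Rars2 was highest at 49.1 ± 21.8 CPM per kb, then Tars2 (24.0 ± 6.20), Lars2 (22.2 ± 11.99) and Yars2 (21.2 ± 1.27). The Rars2 mean exceeded those of Iars, Wars and Vars only through C1 library B (80.8). Without that library, left out after seeing the data, it was 38.6 ± 6.62 (n = 3), below every cytosolic gene. The lowest per kb were Mars2 (2.89 ± 0.81), Vars2 (2.73 ± 1.55) and Wars2 (2.26 ± 1.10). Not divided by length, Mars2 had a mean of 32.7 CPM, near the mitochondrial median of 34.0 CPM. Vars2 (12.1 CPM) and Wars2 (9.95 CPM) were still the lowest.

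The 7 genes of the multi-synthetase complex had full-length means of 47.1 to 351.8 CPM per kb with a median of 156.0. The 12 other cytosolic genes ranged from 41.7 to 201.4 with a median of 78.2. Within the complex Kars was highest and Iars lowest. Class I cytosolic enzymes, which share a Rossmann fold at the active site, had a median of 63.6 CPM per kb over 9 genes, against 114.8 over 10 class II genes. Eprs, which holds a part of each class, was counted in class I. In the tag libraries, not divided by length, the complex had a median of 153.7 CPM and the other cytosolic genes 155.0 CPM. The class I and class II medians there were 148.0 and 196.0 CPM. These are descriptions of ranges that overlap. The scaffold genes had library levels of 104.6 to 273.3 CPM (Aimp1), 56.2 to 215.3 CPM (Aimp2) and 71.2 to 402.3 CPM (Eef1e1), not divided by length.

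In single cells thinned at random to 10000 counts, so that depth was equal, the median cytosolic gene had a count in 50% of cells (MARS-seq A) to 90.5% (Smart-seq2 A). The median mitochondrial gene had one in 6.62% (CEL-seq2 A) to 29.2% (Smart-seq2 B). Eprs was counted in a median of 97.2% of cells over the 12 libraries and Kars in 93.9%, against 5.80% for Nars2 and 10.1% for Vars2. These shares depend on the depth of 10000 counts and are not shares of cells that express the gene. With 0.2 counts per cell set as the minimum, 17 of 19 cytosolic genes reached it in every library, and Cars and Sars fell short in 1 library each. Of the mitochondrial genes only Tars2 and Iars2 did, and Nars2 reached it in no library.

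Lars2, the mitochondrial leucyl-tRNA synthetase, differed most between methods, and its values need care. Its longest transcript holds a stretch of 399 bases (bases 3021 to 3419) in the last of 21 exons, chr9:123461791-123462189 (GRCm38), downstream of the stop codon and so in the 3′ UTR. Repeats resembling ribosomal RNA are known there. The stretch had 25 matches elsewhere in the genome, of 83 to 244 bases and 79.38% to 98.81% identity. It shares 31-base words with 2 other genes of the table, 26 with AA474408 and 22 with Gm15564. Reads from these places and from Lars2 may therefore be exchanged by an aligner.

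Lars2 was at 947.4 and 1637 CPM in SCRB-seq A and B, and at 286.6 and 233.1 CPM in MARS-seq. It was at 44.1 and 35.6 CPM in Drop-seq, at 4.22 and 6.07 CPM in CEL-seq2, at 102.7 and 22.5 CPM in Smart-seq on the C1, and at 87.3 and 133.1 CPM in Smart-seq2 (libraries A and B in each case). The 4 tag methods did not overlap, SCRB-seq being highest and CEL-seq2 lowest. Over the 12 libraries Tars2 ranged from 39.7 to 107.1 CPM and Iars2 from 33.4 to 81.6 CPM. The changes passed the test in all 3 contrasts within the tag methods. Lars2 fell by 5.59 ± 0.67 on the log2 scale in CEL-seq2 against MARS-seq (SE, edgeR's quasi-likelihood test, adjusted p = 2.04e-05). It fell by 5.01 ± 0.61 in Drop-seq against SCRB-seq (adjusted p = 0.000824). In methods with in vitro transcription against PCR it fell by 2.61 ± 0.43 (adjusted p = 0.000507).

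Gm15564 moved with it. It fell by 6.90 ± 0.81 in CEL-seq2 against MARS-seq (adjusted p = 1.35e-05), by 4.51 ± 0.59 in Drop-seq against SCRB-seq (adjusted p = 0.00102) and by 3.98 ± 0.50 in in vitro transcription against PCR (adjusted p = 4.75e-05, all edgeR). Its levels were 616.3 and 1069 CPM in SCRB-seq, 121.8 and 123.6 CPM in MARS-seq, 44.1 and 29.1 CPM in Drop-seq, and 0 and 1.52 CPM in CEL-seq2. Over the cells of a library, the Spearman correlation of Lars2 with Gm15564 was 0.468 and 0.603 in SCRB-seq A and B (39 and 45 cells) and 0.458 and 0.496 in Drop-seq (42 and 34 cells). It was lower elsewhere: 0.217 and 0.312 in MARS-seq, 0.0392 and 0.107 in Smart-seq2, 0.124 and -0.0778 on the C1, and -0.0338 for CEL-seq2 B, where both genes were near 0 (CEL-seq2 A gave no value). With the rRNA-like transcript Gm42418 the correlation was 0.359 and 0.515 in SCRB-seq, but -0.190 and 0.183 in Drop-seq and 0.272 and -0.225 in MARS-seq, and it lay between 0.0280 and 0.219 in the other 6 libraries. With AA474408 it was -0.0207 and 0.0713 in SCRB-seq, 0.201 and 0.0357 in MARS-seq, and -0.104 and 0.422 in Drop-seq, where its counts were few. These correlations are descriptions over cells that share a library. Gm42418 was at 60499 and 82479 CPM in SCRB-seq and at 129716 and 137843 CPM in MARS-seq, so its order between these methods was the reverse of that of Lars2. The part of reads from rRNA-like places in the Lars2 counts was not tested.

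**Figure D2:**
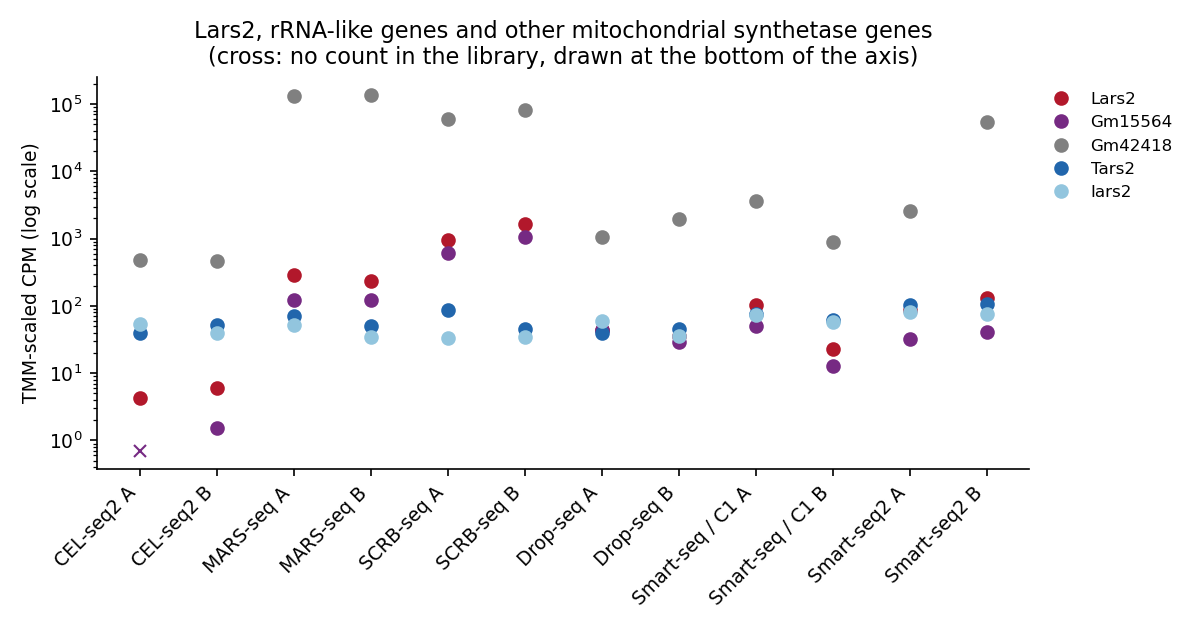
TMM-scaled CPM (log axis) of Lars2, the rRNA-like genes Gm15564 and Gm42418, and the mitochondrial synthetase genes Tars2 and Iars2 in the 12 libraries; a cross marks no count. Lars2 and Gm15564 are both highest in SCRB-seq and lowest in CEL-seq2, while Tars2 and Iars2 stay between 33.4 and 107.1 CPM.

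Because of this, sums over the mitochondrial genes rest on Lars2 in some methods. It made up 69.9% and 83.6% of the mitochondrial synthetase counts in SCRB-seq A and B, 44.6% and 42.7% in MARS-seq, and 1.68% and 1.73% in CEL-seq2. The median-based difference between compartments was 3.30 ± 0.52 without it. With it, 0 cytosolic genes lay above every mitochondrial gene in either SCRB-seq library, and all 19 did without it.

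The full-length libraries gave higher relative levels of most members than the tag libraries. Of the 35 genes, 27 passed edgeR's quasi-likelihood test (Benjamini-Hochberg adjusted p under 0.05 over 14293 genes), 26 of them higher and 1 lower. The background was 48.8% of all genes tested, 25.6% higher and 23.2% lower. Of the cytosolic genes 18 of 19 rose, with a median log2 fold change of 1.11. Of the mitochondrial genes 8 of 16 rose and 1 fell, with a median of 0.86. The median over all genes tested was 0.21. It was 0.59 over the 4885 genes with a longest transcript above 2000 and up to 4000 nucleotides, which takes in 13 cytosolic members (median 1.32) and 9 mitochondrial members (median 0.85). Among the 3684 genes above 4000 and up to 8000 nucleotides it was 0.50, and the 5 cytosolic (0.63) and 4 mitochondrial members (0.46) of that length lay near it. For the 2328 genes above 1000 and up to 2000 nucleotides it was 0.05, against 1.20 for 1 cytosolic and 1.31 for 2 mitochondrial members. Read counts from whole transcripts grow with length, and UMIs do not; counting, length and protocol cannot be told apart here.

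The largest rises were those of Mars2 (mitochondrial methionine), Rars2 (mitochondrial arginine) and Farsa, the catalytic subunit of the cytosolic phenylalanine enzyme. Mars2 was at 23.1, 42.7, 27.0 and 37.9 CPM in the full-length libraries and at 2.35 to 22.7 CPM in the tag libraries, with a log2 fold change of 1.90 ± 0.44 (edgeR adjusted p = 0.00148). The groups did not overlap. Its longest transcript is also the longest of the members (11294 nucleotides), and the median over the 675 genes above 8000 nucleotides was 0.46. Rars2 was at 59.7 to 150.9 CPM against 16.03 to 41.2 CPM (1.76 ± 0.29, adjusted p = 6.63e-05). Farsa was at 264.6 to 342.6 CPM against 69.2 to 149.8 CPM (1.56 ± 0.19, adjusted p = 2.59e-06). Neither gene overlapped between the groups.

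Wars2, mitochondrial tryptophan, was the 1 member that fell, by 1.02 ± 0.37 (edgeR adjusted p = 0.0308). Its tag levels of 72.7 and 55.1 CPM in Drop-seq stood apart from the other 6 tag libraries (7.59 to 23.5 CPM), and the full-length libraries held 5.53 to 16.9 CPM. The call was lost with 12 of 17 alternatives. Leaving out any library but SCRB-seq B or C1 library A was enough, and the log2 fold change was then -0.91 to -0.56. Vars was the cytosolic gene that did not pass (log2 fold change -0.43 ± 0.21, adjusted p = 0.0967). Kars passed at 1.47 ± 0.21 (adjusted p = 1.83e-05) and Gars at 0.49 ± 0.19 (adjusted p = 0.0420), while Lars2 did not pass (-0.15 ± 0.33, adjusted p = 0.756). All 7 complex genes and all 11 known Atf4 targets were among those that rose.

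**Figure D3:**
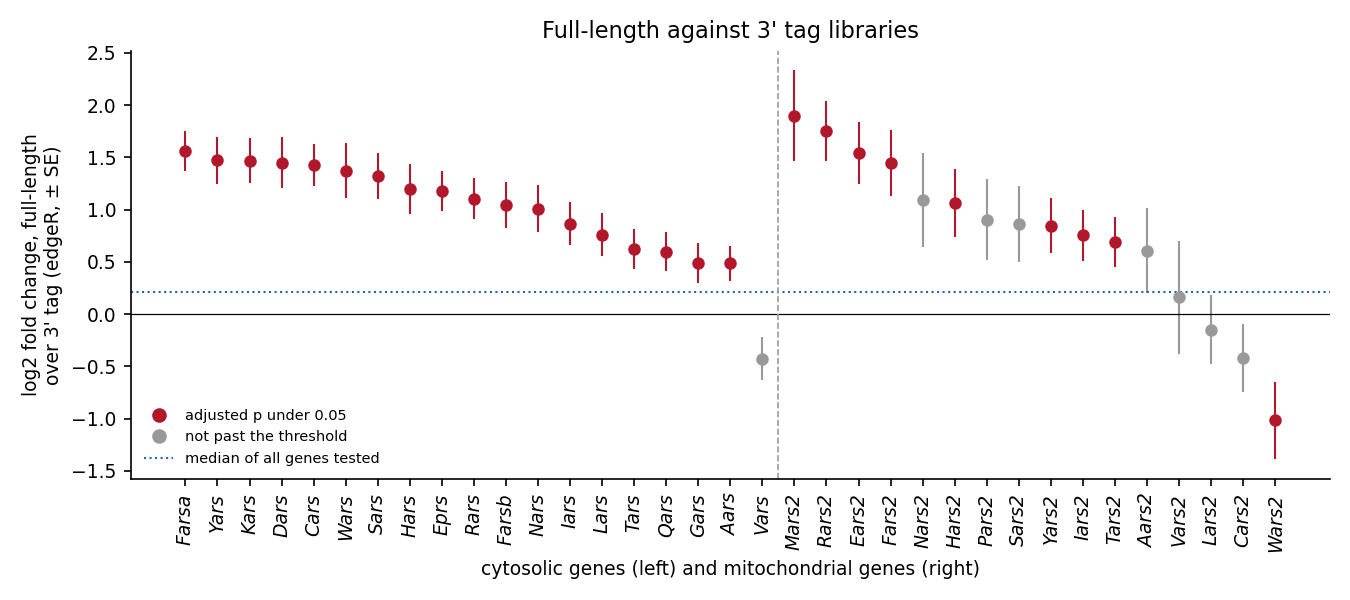
Log2 fold change of each member in full-length over tag libraries (edgeR, points with ± SE; red passed at adjusted p under 0.05, grey did not). The dotted line is the median of all genes tested, 0.21; 18 of 19 cytosolic and 8 of 16 mitochondrial genes are red and above 0, and Wars2 is red and below it.

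Genes that work beside the synthetases moved less uniformly in this contrast than the cytosolic members. Of 15 charging partners, which handle charged tRNA or hold the complex together, 5 rose and 0 fell (median log2 fold change 0.61), with Eef1e1 at 1.07 ± 0.23 (adjusted p = 0.000710) and Gatb, a subunit of the mitochondrial amidotransferase, at 1.56 ± 0.36 (adjusted p = 0.00146). Of 18 mitochondrial translation genes 7 rose and 1 fell (median 0.73); Tufm, the mitochondrial elongation factor that delivers charged tRNA, fell by 2.02 ± 0.27 and Gfm2, a ribosome recycling factor, rose by 1.54 ± 0.23. Of the 25 amino acid response genes tested 7 rose and 4 fell (median 0.43). These counts stand beside the background of 25.6% higher and 23.2% lower given above.

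In Smart-seq on the C1 against Smart-seq2, the 2 full-length methods, 4 of 35 members passed, where the background was 15.6% (8.75% higher and 6.81% lower). Eprs rose by 1.27 ± 0.33 (edgeR adjusted p = 0.0142), from 536.6 and 495.7 CPM in Smart-seq2 to 924.2 and 1562 CPM on the C1. Kars rose by 1.25 ± 0.37 (adjusted p = 0.0270), from 506.2 and 503.7 to 695.0 and 1699 CPM. Vars fell by 1.90 ± 0.34 (adjusted p = 0.00113), from 287.9 and 255.9 to 95.3 and 50.4 CPM. Aars2, mitochondrial alanine, fell by 2.47 ± 0.67 (adjusted p = 0.0186), from 59.3 and 57.5 to 17.9 and 3.11 CPM. In each of the 4 genes, libraries A and B of the C1 differed from each other more than those of Smart-seq2. The calls for Eprs, Kars and Aars2 were each lost without C1 library B (log2 fold changes of 0.82, 0.44 and -1.72). They were also lost without either Smart-seq2 library, where Vars kept its call. A smaller share of all genes tested passed in these fits as well. The call for Eprs was also lost without SCRB-seq A and in limma, and that for Kars with 10 of 17 alternatives. The number of members that passed rose without C1 library A and fell without SCRB-seq A, as did the share of all genes tested. Gars (-0.20 ± 0.32) and Lars2 (-0.81 ± 0.50) did not pass.

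Among the tag methods, in vitro transcription against PCR gave 7 of 35 members, 3 higher and 4 lower, where the background was 22.0% (9.14% higher and 12.9% lower). Tars rose by 1.37 ± 0.23 (edgeR adjusted p = 0.000510), at 272.0 to 355.2 CPM in CEL-seq2 and MARS-seq against 110.1 to 128.9 CPM in SCRB-seq and Drop-seq, without overlap. Vars rose by 1.17 ± 0.24 (adjusted p = 0.00263), and Farsb, the regulatory subunit of the phenylalanine enzyme, by 1.09 ± 0.28 (adjusted p = 0.00971). Only CEL-seq2 stood apart in these genes, with Vars at 492.7 and 455.3 CPM. In MARS-seq Vars (180.9 and 158.9 CPM) overlapped the PCR methods (105.8 to 169.1 CPM). Farsb in MARS-seq (102.1 and 83.6 CPM) lay within their range of 72.7 to 115.7 CPM. Sars, serine, fell by 1.91 ± 0.28 (adjusted p = 0.000159), and Cars, cysteine, by 1.03 ± 0.26 (adjusted p = 0.00842); both differed strongly between CEL-seq2 and MARS-seq as well. Without Drop-seq A the calls for Farsb and Cars were lost, and a smaller share of all genes tested passed as well. Of the amino acid response list 10 of 25 genes rose and 1 fell in this contrast, and between the 2 in vitro transcription methods, CEL-seq2 against MARS-seq, 7 rose and 1 fell. Gars (0.35 ± 0.23) and Kars (0.37 ± 0.26) did not pass.

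CEL-seq2 against MARS-seq, which share in vitro transcription, differed in 11 of 35 members, 6 higher and 5 lower, where the background was 23.4% (11% higher and 12.4% lower). Farsb rose by 2.19 ± 0.40 (edgeR adjusted p = 0.000719). It was at 440.4 and 403.8 CPM in CEL-seq2 and at 72.7 to 115.7 CPM in the other 6 tag libraries, so CEL-seq2 stood apart. Yars2, mitochondrial tyrosine, rose by 1.79 ± 0.49 (adjusted p = 0.0138) and Vars by 1.48 ± 0.34 (adjusted p = 0.00471); both calls were lost when either MARS-seq library was left out, and that for Yars2 also without CEL-seq2 B. Kars rose by 1.14 ± 0.37 (adjusted p = 0.0340) and Gars did not pass (0.07 ± 0.32).

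The falls in that contrast were larger. Sars was at 24.5 and 17.8 CPM in CEL-seq2 and at 109.2 to 245.7 CPM in the other tag libraries, and fell by 2.57 ± 0.42 against MARS-seq (edgeR adjusted p = 0.000252). Cars was at 20.2 and 19.3 CPM against 66.4 to 100.5 CPM, and fell by 2.23 ± 0.38 against MARS-seq (adjusted p = 0.000393). CEL-seq2 did not overlap the other methods in either gene. Pars2, mitochondrial proline, fell by 2.25 ± 0.79 (adjusted p = 0.0470), a call that was lost with 11 of the alternatives. Fars2, mitochondrial phenylalanine, fell by 2.23 ± 0.59 (adjusted p = 0.0111); Fars2 and Cars were named after their values were seen. Exons of Farsb overlap those of Sgpp2 by 248 bases on the opposite strand, those of Fars2 overlap Nrn1 by 501 bases, and those of Cars overlap the pseudogene Gm15580 by 211 bases. Whether counting used the strand is not given in the sources used here, so reads of these pairs may not be separated. The number of members that passed in this contrast fell without MARS-seq A, MARS-seq B, CEL-seq2 B or either Smart-seq2 library. The share of all genes tested that passed fell in each of these fits too.

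In Drop-seq against SCRB-seq 1 of 35 members passed in edgeR, Lars2, where the background was 1.51% (1.03% higher and 0.483% lower). In limma on the mean log2(CPM + 1) of cells 10 members passed, 1 higher and 9 lower, where 28.4% of all genes did (3.18% higher and 25.3% lower). Wars2 had a log2 fold change of 2.26 ± 0.62 but did not pass (edgeR adjusted p = 0.0722). Gars (-0.54 ± 0.33) and Kars (-0.75 ± 0.37) did not pass either. Over the 6 methods together, 27 of 35 members differed in the joint test, 18 cytosolic and 9 mitochondrial, where the background was 65.4%. Gars was the cytosolic gene that did not (adjusted p = 0.126), with 192.7 to 459.7 CPM over the 12 libraries.

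Cell-to-cell variation of the members was near that of other genes of like mean. The measure was the squared coefficient of variation (CV) among thinned cells, as log2 above the trend over all genes of the library, averaged over methods. Of the 19 members with enough counts, 1 was more variable than the trend and 0 less (2 of 19, 10.5%, at an unadjusted p under 0.05, against 28.6% of all genes), where the background over 2695 genes was 5.31% higher and 8.87% lower (limma, adjusted p under 0.05). Nars passed at 0.26 ± 0.06 (SE, limma adjusted p = 0.0103), above the trend in 10 of 12 libraries. Eprs (0.14 ± 0.06) and Farsa (0.09 ± 0.05) followed without passing, and the lowest were Hars (-0.10 ± 0.05), Dars (-0.07 ± 0.06) and Vars (-0.07 ± 0.07). The Nars value averages 10 random thinnings. Taken singly, all 10 gave a positive value and 1 of them passed. With spike-ins, mitochondrial and rRNA-like genes left out before thinning to 5000 counts, Eprs passed and Nars did not.

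Within libraries, cells with more cytosolic synthetase counts tended to have more counts of the amino acid response list. The Spearman correlation over cells between the 2 sums was 0.286 ± 0.151 (mean ± SD over 12 libraries) and was positive in 11 of 12. It ran from -0.0234 in SCRB-seq A to 0.541 in Smart-seq2 B, and was 0.431 in Smart-seq2 A. For the mitochondrial members it was -0.0240 ± 0.0614, and positive in 2 of 12 libraries. With Lars2 left out of the mitochondrial sum it was 0.0070 ± 0.0876, and positive in 5 of 12. The cytosolic value exceeded the mitochondrial value in 11 of 12 libraries. With near-identical Drop-seq barcodes joined into 1 cell, the means were 0.290 and -0.0265. As other readings over the same cells, the cytosolic sum had a mean correlation of 0.0268 with the mitochondrial translation list, 0.101 with the naive stem cell list and 0.0315 with the mitochondrial members. The mitochondrial sum was 241.1 to 1951 CPM per library against 2257 to 8287 CPM for the cytosolic sum, and the part of this difference in counts in the 2 correlations was not tested. All are descriptions over cells that share a library and its depth.

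**Figure D4:**
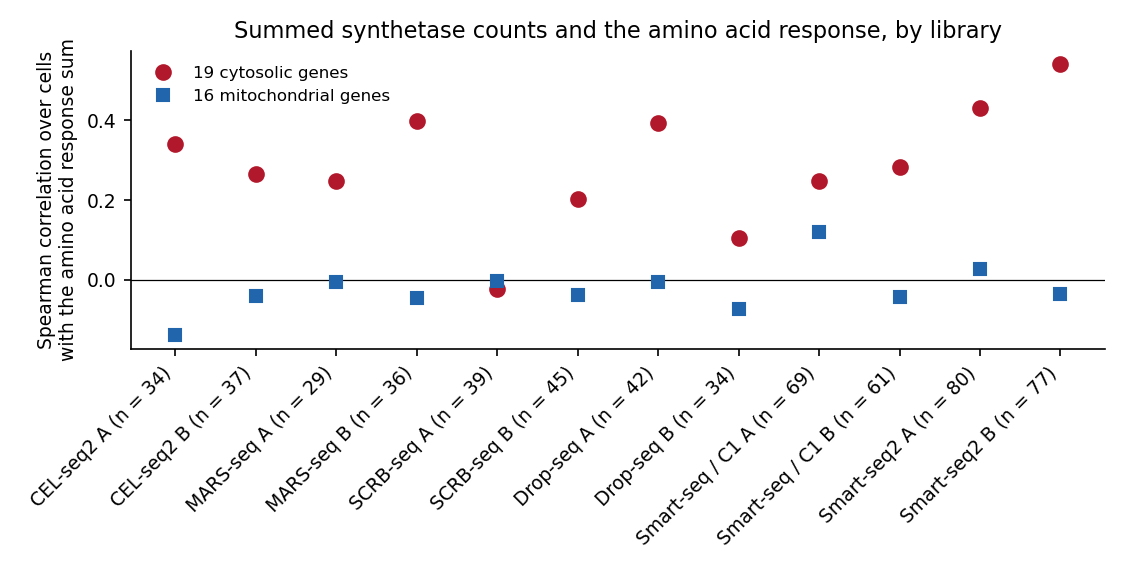
Spearman correlation over the cells of each library between the summed counts of the amino acid response list and those of the 19 cytosolic (red circles) or 16 mitochondrial genes (blue squares), cells thinned to 10000 counts. The red points lie above 0 in 11 of 12 libraries; the blue points range from -0.140 to 0.119.

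Gene by gene, the members differed. Over the 2695 genes with enough counts, the mean correlation with the response sum had a median of 0.0130, and the top 5% began at 0.0750. Of the 17 cytosolic members with enough counts 7 lay in that top 5%, with a median of 0.0652, and 0 of the 2 mitochondrial members did. Nars was highest at 0.207 and ranked 2 among the 2695 genes, just after Psat1, a serine synthesis enzyme of the response list itself. Its values per library ran from -0.0368 to 0.467 and were positive in 10 of 12. Gars followed at 0.157 (positive in 12 of 12 libraries), then Yars at 0.145, Iars at 0.134 and Tars at 0.122. The lowest were Farsb (0.0114), Tars2 (0.0105) and Iars2 (-0.0338). Iars2 and Rab3gap2 share 2034 exonic bases on opposite strands, so the Iars2 counts may include reads of the other gene.

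The 5 genes whose promoter stretches are printed above all lay in the top 5%, at 0.121 (Aars) to 0.157 (Gars). Exons of Aars overlap those of Exosc6 by 1326 bases on the same strand, and Exosc6 is not in the count table. The Aars counts may therefore include reads of Exosc6. The 6 cytosolic members that had enough counts, a window and no motif ranged from 0.0114 to 0.0816, and 1 of them, Eprs, lay in the top 5%. Hars, Lars, Nars, Rars, Vars and Wars had no window, so Nars, the highest member at 0.207, could not be classed by motif. By the known Atf4 targets, the 9 with enough counts had a median of 0.122 with 7 in the top 5%, and the other 8 cytosolic members had a median of 0.0239 with 0. The 9 genes of the response list itself, each against the sum of the others, had a median of 0.131. Among all genes with 1 to 5 thinned counts per cell the median was 0.0169. Kars, with a mean of 4.40 thinned counts per cell, stood at 0.0658, and Gars with 2.75 at 0.157. The Atf4 target list comes from textbook knowledge and was chosen with earlier results of these data known.

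**Figure D5:**
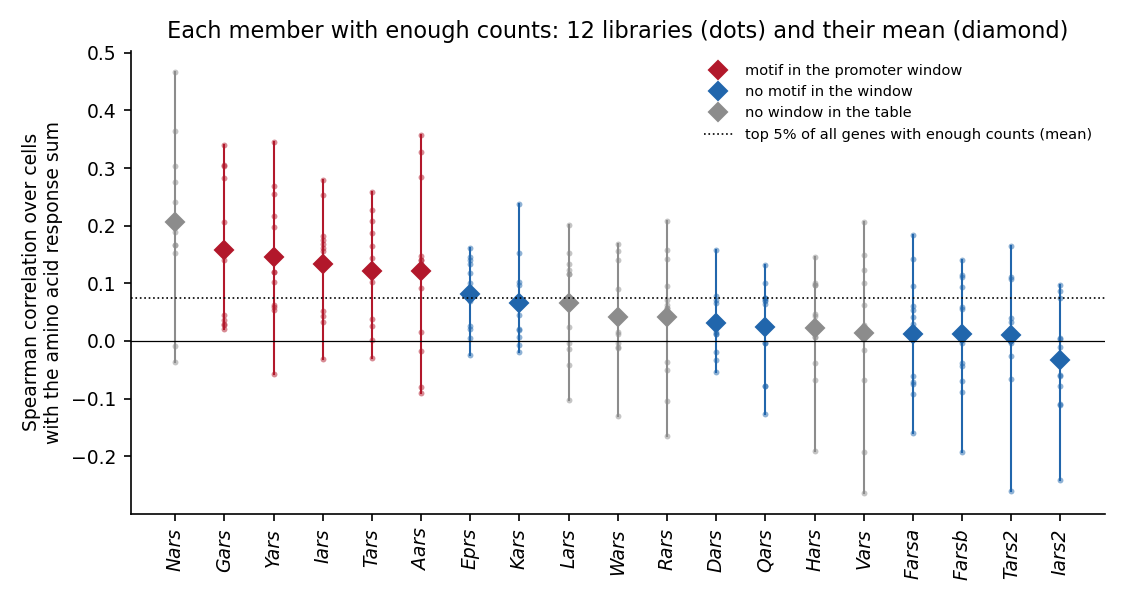
Spearman correlation over cells of each member with enough counts with the amino acid response sum; dots are the 12 libraries, diamonds their mean, lines the range. Red genes hold the motif in the promoter window and all lie above the dotted line at 0.0750, where the top 5% of genes begins; blue genes have a window without it, and grey genes have no window in the table.

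Pairs of members showed the same grouping more weakly. The 136 pairs of cytosolic members had a median correlation over cells of 0.0208, with 83.1% above 0, against 0.00564 and 58.5% over all pairs of genes with enough counts. The 36 pairs of known Atf4 targets had a median of 0.0510, and the 28 pairs of other cytosolic members 0.0182. The 21 pairs within the multi-synthetase complex had a median of 0.0125. The pairs of a cytosolic with a mitochondrial member, 34 in all, had a median of 0.000323. The highest pairs were Iars with Nars (0.117, positive in 12 of 12 libraries), Nars with Yars (0.0989) and Gars with Iars (0.0956). Counts per cell are low, and these values are descriptions only.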

How the data were processed

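The data are 1 deposited table of whole-number counts per gene and cell, made by the authors: reads for both Smart-seq methods and UMIs for the 4 tag methods. Alignment with STAR 2.4.0 to mm10 is named in the submitters' processing notes; strand and annotation used for counting are not given in the sources used here. Counts were summed over the cells of each library and fitted with edgeR 4.0.16 (TMM, filterByExpr, robust quasi-likelihood, 1 mean per method, 6 residual degrees of freedom), with 5 contrasts and a joint test, adjusted over 14293 genes. DESeq2 1.42.0, limma 3.58.1, other scalings and filters, a replicate block and leaving out each library were alternatives. Depth per library was 583302 to 34984056 counts; tag counts limit the mitochondrial genes most. Both fits were tested on simulated data.

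For values among cells, each cell was thinned to 10000 counts, spike-ins included; all 583 cells qualified, and 12 cells above 2 times their library's median were kept (left out in an alternative). Residual variation used a loess trend (span 0.5) for genes with at least 0.2 counts per cell in every library. Single draws differed, so means over 10 draws were taken; this choice was made after seeing the data. No doublet caller was run. Libraries of the same letter were not paired in the main fit. Over 15 pairs of methods the correlation of A minus B was -0.0994 to 0.0884, which cannot show whether such libraries shared a culture. Named per contrast are the 3 largest rises and 3 largest falls among members that pass, with Lars2, Kars and Gars always; among cells, the 3 most and 3 least variable and the 5 highest and 3 lowest correlations; from other lists, the 2 smallest p-values. The members and lists were chosen with earlier results of these data known.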

Additional observations from a re-analysis of the deposited data

Results flagged for a closer look

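In each of the 76 sets of 4 full-length or 8 tag libraries checked (35 genes and 3 summary values in each), a library was marked where its gap to the nearest other was large for the set's range (Dixon's test at 95%); chance marks about 1 in 20. In all, 9 were marked. In the full-length set the C1 library B was high for Kars (1699 CPM, the others from 503.7), Nars (1006, from 370.3), Lars (339.7, from 214.3) and Hars (239.5, from 163.1), and the C1 library A was low for Sars (127.3 CPM, the highest being 302.0) and Wars (75.27, the highest being 154.6). In the tag set SCRB-seq A was high for Pars2 (37.82 CPM, median 10.2) and Nars2 (17.35, median 5.80), and SCRB-seq B for Ears2 (32.56, median 13.6).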

How the results depend on the processing

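The counts of members that passed kept within 1.5 times their value, with these exceptions. In Smart-seq on the C1 against Smart-seq2, 4 members passed in edgeR and 7 in DESeq2 (21.6% of all genes). In Drop-seq against SCRB-seq, 1 passed in edgeR, 2 with DESeq2's size factors (2.27% of all genes), 2 in DESeq2 (6.81%) and 10 in limma on mean log2(CPM + 1) (28.4%), 9 of them lower. The cause was not tested. Leaving out 1 library in turn gave 25 to 31 members for full-length against tag, 1 to 8 for the C1 against Smart-seq2, 4 to 9 for in vitro transcription against PCR, 4 to 12 for CEL-seq2 against MARS-seq, 1 to 2 for Drop-seq against SCRB-seq (2 without either C1 library), 26 to 33 for any method and 1 to 2 for variation among cells (2 without Drop-seq B, adding Tars2, or without MARS-seq A, adding Eprs). With the letter as a replicate block, 27, 4, 7, 10, 1 and 27 members passed (27, 4, 7, 11, 1 and 27 without it), the lost call being Pars2. Of all genes tested, 47.7%, 14.5%, 20.7%, 22.2%, 1.28% and 63% passed with the block, in the same order of contrasts. The split of full-length calls was 22 higher and 2 lower with DESeq2's size factors, where 20.5% of all genes were higher and 24.8% lower. For variation among cells, the first single random thinning called 0 members; over the 10 draws Nars passed in 1 (limma adjusted p = 0.0241). The level difference between compartments was 3.06 to 3.30 under the other gene sets and lengths and 3.01 without division by length; a library total in place of TMM cancels in this ratio. The cytosolic correlation was 0.207 to 0.377 and the mitochondrial one -0.0265 to 0.00702 under the alternatives other than single draws. The lowest cytosolic value came from thinning to 5000 counts without spike-ins, mitochondrial and rRNA-like genes, and 5000 counts of all genes gave 0.216. The unthinned shares (0.377) and the thinning without rRNA-like genes (0.207) were added after seeing the data. Single random draws, also added then, gave 0.244 to 0.340 and -0.0656 to 0.0510. Of 375 refits of the 22 named changes, 324 kept their call, 51 lost it and 0 changed direction. Depth limits the mitochondrial genes: 14 of 16 fell under 0.2 counts per thinned cell in some library.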
